A study of Homo sapiens with 10 samples.

Results

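A set of 8 genes that mark YAP activity or a fetal-like state of the gut epithelium was followed through the open chromatin of the DLD-1 line (human colorectal adenocarcinoma, long established in culture) before and after loss of GATA6. They were CCN1, CCN2, ANKRD1, AJUBA, ANXA1, ANXA3, CRIM1 and CLU, 8 of the 19974 protein-coding genes on chromosomes 1 to 22 and X in the RefSeq gene table. Every peak inside the body of one of these genes or within 50 kb of either end was taken, whatever its strength. After merging, the 8 windows held 145 of the 120452 regions of the degron line and 160 of the 157584 regions of the WT and KO cells.

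GATA6 is a zinc-finger transcription factor of the gut epithelium. It was removed in 2 ways. In cells of genotype GATA6-AID-IAA7 the protein carries an auxin-inducible degron, a tag through which auxin (IAA, 500 µM per the labels' protocol) sends it to the proteasome. Treated cells came from positive clones, how many is not stated, and all 3 degron groups share the tagged allele. AID_ctrl carries the labels +Auxin and 0 h with a title of control and was read as untreated. AID_aux had 12 h of auxin. AID_wash is labelled Wash with a time of 1 and no unit. The other cells were WT DLD-1 and GATA6-KO DLD-1 made with CRISPR/Cas9, with no auxin named. Each of the 5 groups had 2 ATAC-seq libraries, and the labels do not say whether these came from separate cultures, so the spread between them may be technical.

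YAP and its paralog TAZ are co-activators that the Hippo kinases LATS1 and LATS2 hold in the cytoplasm. When released they enter the nucleus and bind DNA through the TEAD factors, whose core motif reads GGAATG, at promoters and, more often, at distal enhancers. In the intestine YAP is required for regeneration after injury, when crypt cells re-express genes of the fetal epithelium, ANXA1, ANXA3 and CLU among them. CCN1 and CCN2 encode secreted matricellular proteins and are the usual reporters of YAP activity. ANKRD1 encodes an ankyrin-repeat protein of the nucleus and sarcomere. AJUBA encodes a LIM-domain scaffold that binds LATS kinases and so feeds back on the pathway. CRIM1 encodes a transmembrane protein with cysteine-rich repeats that binds BMP ligands.

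ATAC-seq reports where a transposase can reach DNA, so a peak is a stretch of open chromatin, not a measure of transcription. The 6 degron lists held 154150 to 198493 peaks, the WT lists 92814 and 65939, and the KO lists 130311 and 116231. No read counts come with them, so depth is unknown and a region without a call may be open below the calling threshold. Peaks over the starts of marker genes, or over either end where no strand was listed (EPCAM and KRT18 among others), were read for the labelled cell type. Of 9 epithelial markers 5 had one in all 10 libraries: EPCAM, CDX2, KRT8, KRT18 and KRT20. CDH1 had one in 9, LGALS4 in 7, VIL1 in 3 and CDX1 in none. Of 3 endothelial markers none had one in any library, of 5 fibroblast markers 0 or 1 per library, and of 5 immune markers 1 to 3 (CD68 in all 10, PTPRC in none).

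Each of the 8 genes had a region over its start, or over one of its ends where the table gives no strand (the lower end of CCN1 and CRIM1, the upper end of CLU), that all 6 degron libraries called and that windows of all 4 WT and KO libraries overlapped. At 5 genes, CCN1, ANKRD1, AJUBA, ANXA1 and CLU, a peak lay within 250 bp of that start or end in all 10 libraries. At the other 3 the WT and KO windows were partly set further into the gene: at CCN2 they began 308, 360 and 263 bp after the start in WT replicates 1 and 2 and KO replicate 2, at ANXA3 331 and 357 bp after it in the KO libraries, and at CRIM1 929 bp from the lower end in KO replicate 1. These windows are 500 bp wide by construction. The promoters of CCN2 and ANKRD1, 250 bases before to 50 bases after the start, are shown because they lie wholly inside such a region and hold repeated matches to the TEAD motif, and a second AJUBA start is shown because its single match lies in a region called in all 6 degron libraries. Sequences are from RefSeq (GRCh38.p14), all 3 from the minus strand, written 5′ to 3′ with matches to GGAATG and, in ANKRD1, to the reverse of the GATA motif AGATAA in capitals.
CCN2, chr6:131951323-131951622: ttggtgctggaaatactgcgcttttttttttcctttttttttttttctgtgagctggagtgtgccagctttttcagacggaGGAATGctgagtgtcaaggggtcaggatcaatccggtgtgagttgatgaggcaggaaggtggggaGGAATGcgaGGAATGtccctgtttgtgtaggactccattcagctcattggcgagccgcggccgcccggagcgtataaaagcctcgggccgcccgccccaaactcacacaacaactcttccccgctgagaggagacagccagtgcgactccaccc
ANKRD1, chr10:90921038-90921337: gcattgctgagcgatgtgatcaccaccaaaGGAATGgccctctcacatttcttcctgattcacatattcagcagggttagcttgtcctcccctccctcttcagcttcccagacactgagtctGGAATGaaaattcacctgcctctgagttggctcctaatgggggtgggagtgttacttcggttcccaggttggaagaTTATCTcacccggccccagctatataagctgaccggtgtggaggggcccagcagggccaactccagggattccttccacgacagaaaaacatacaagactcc
AJUBA, second start, chr14:22976793-22977092: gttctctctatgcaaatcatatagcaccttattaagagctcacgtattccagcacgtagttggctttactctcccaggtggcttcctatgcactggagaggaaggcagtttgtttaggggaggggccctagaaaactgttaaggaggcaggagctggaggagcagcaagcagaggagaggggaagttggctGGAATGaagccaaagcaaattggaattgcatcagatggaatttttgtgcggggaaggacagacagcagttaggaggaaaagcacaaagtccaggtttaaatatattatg

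CCN2 has 3 matches to GGAATG, which begin at positions -169, -104 and -95 from the start. Searched on both strands (GGAATG or CATTCC), 14.0% of the 34961 promoters in the table hold at least 1 match, 1.37% hold 2 or more, and 0.123% (43 promoters) hold 3 or more. ANKRD1 has 2, at -220 and -128, with 1 match to the AP-1 motif TGANTCA at -195, which 7.68% of promoters hold, and 1 GATA match at -52, on the strand opposite to the gene. The GATA motif (AGATAA or TTATCT) is found in 10.3% of promoters. The second AJUBA start has 1 TEAD match at -59, and the first AJUBA start and the starts of ANXA1 and ANXA3 have no match to any of the 3 motifs. No motif overlapped another. CCN1, CRIM1 and CLU were not searched. A match is a run of letters and was not tested for binding.

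In the degron line the authors' fold enrichment, the height of a peak over the background within its own list, was high at ANKRD1. Its start region (chromosome 10, 90920960 to 90922129) stood at 16.7 and 17.4 in AID_ctrl replicates 1 and 2, 16.9 and 16.0 in AID_aux, and 13.9 and 15.1 in AID_wash. These values placed it between the 97.2 and 99.6 percentile of each list, with the highest summit between -254 and -218, next to the first TEAD match. The 2 AID_wash values were the lowest of the 6, and the AID_ctrl and AID_aux values overlapped. At CCN2 (chromosome 6, 131949915 to 131951626) the values were 6.83 and 7.04 in AID_ctrl, 6.16 and 7.54 in AID_aux, and 7.53 and 6.22 in AID_wash, so that all 3 groups overlapped. Values are compared here only for order within one region, since each list is scaled on its own.

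**Figure D1:**
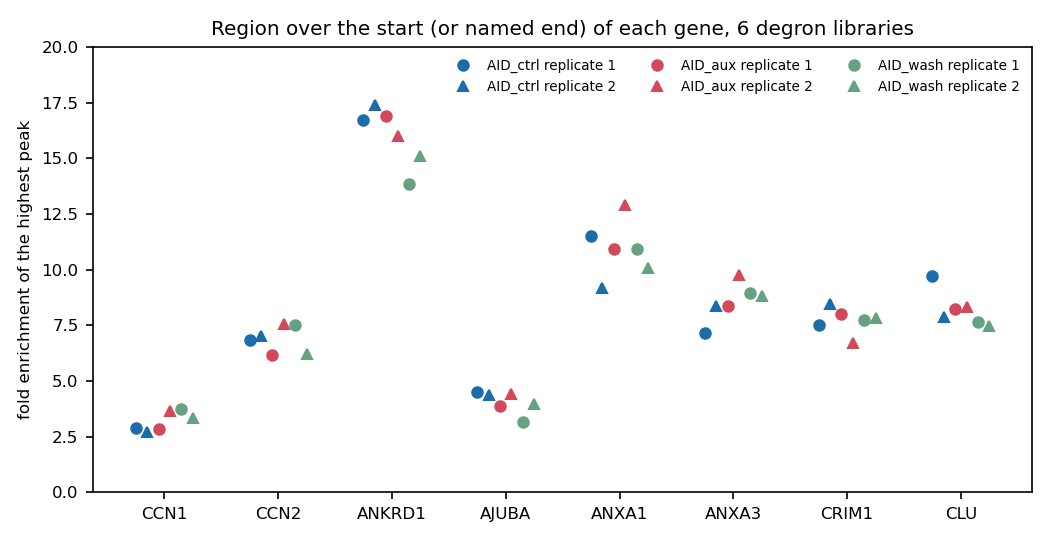
Fold enrichment of the highest peak (y axis, linear from 0) in the region over the start or named end of each of the 8 genes (x axis) in the 6 degron libraries, where colour marks the group and shape the replicate. ANKRD1 is highest, from 13.9 to 17.4, CCN1 and AJUBA are lowest, and AID_ctrl and AID_aux overlap at every gene.

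The other start regions were lower than that of ANKRD1. That of ANXA1 (chromosome 9, 73151486 to 73152785) stood at 11.5 and 9.17 in AID_ctrl, 10.9 and 12.9 in AID_aux, and 10.9 and 10.1 in AID_wash. ANXA1 is a calcium-dependent phospholipid-binding annexin, and its groups overlapped. That of ANXA3 (chromosome 4, 78551384 to 78552962), another annexin, stood at 7.18 and 8.39, then 8.38 and 9.78, then 8.96 and 8.81, with both AID_wash values above both AID_ctrl values. That of AJUBA (chromosome 14, 22982308 to 22983546) stood at 4.52 and 4.38, then 3.89 and 4.43, then 3.16 and 3.95, with both AID_wash values below both AID_ctrl values. No test was run on these values, which each belong to one list, and an exact permutation of 2 against 2 cannot go below p = 0.333.

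For the genes without a listed strand, distances are given from the lower-coordinate end, and negative distances lie below that end or, where the strand is listed, before the start. Over the lower end of CRIM1 (chromosome 2, 36355302 to 36358381) the highest peak stood at 7.54 and 8.45 in AID_ctrl, 8.03 and 6.69 in AID_aux, and 7.75 and 7.82 in AID_wash, and the groups overlapped. Over the upper end of CLU, which encodes the secreted chaperone clusterin (chromosome 8, 27613959 to 27615120), it stood at 9.74 and 7.86, then 8.24 and 8.34, then 7.64 and 7.47. The AID_wash values at CLU were the lowest of the 6. Over the lower end of CCN1 (chromosome 1, 85580542 to 85581061) it stood at 2.90 and 2.71, then 2.85 and 3.66, then 3.74 and 3.36. Together with AJUBA this was the lowest start region of the 8.

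The low values at CCN1 did not come with few regions. Its window held 18 degron regions, 17.4 per 100 kb, against a median of 6.80 (quartiles 4.0 and 9.97) over the windows of all 19974 protein-coding genes. A row of low regions lined the gene, from the lower end through the body (1583 bp in, 3.40 to 3.74) to the upper end (85583943 to 85584791, 2.36 to 2.99), while the flanks held some of the highest peaks of the windows. The region at -35917 bp (85544097 to 85545591) stood at 14.9 and 14.1 in AID_ctrl, 16.2 and 15.4 in AID_aux, and 15.8 and 16.1 in AID_wash. Both the low regions over the gene and the high ones in its flanks were called throughout the degron line, apart from a region in the body (85583420 to 85583569) that 2 libraries called.

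Of the 8 windows, 6 were denser in regions than the upper quartile of all windows. AJUBA had 17.1 regions per 100 kb, CRIM1 14.9, CLU 12.7, ANXA1 12.7 and ANXA3 10.7, whereas ANKRD1 had 8.26 and CCN2 7.75. Neighbouring genes share the space: PRMT5, HAUS4, C14orf93 and PSMB5 lie in the AJUBA window, RPP30 near ANKRD1, DDAH1 near CCN1, FEZ2 near CRIM1, FRAS1 near ANXA3, and EPHX2 and SCARA3 near CLU. Only the windows of CCN2 and ANXA1 held no other protein-coding gene, and regions were not divided between neighbours. Of the 145 regions, 88 (60.7%) were called in all 6 degron libraries, against 51.6% of all degron regions.

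In each window the highest distal region, away from any protein-coding gene start, was taken among those called in all 6 degron libraries. Each was also called in all 4 WT and KO libraries. Apart from that of CCN1, these lay at CRIM1 (36337713 to 36339154, enrichment 13.0 to 16.2 over the 6 libraries), ANXA3 (78621692 to 78623320, 11.9 to 14.8), CLU (27635443 to 27636673, 11.4 to 13.5) and ANKRD1 (90968419 to 90969837, 10.2 to 13.5). Those at AJUBA (23006553 to 23007485, 9.86 to 11.6), ANXA1 (73199780 to 73200364, 7.58 to 12.5) and CCN2 (131909669 to 131910614, 5.89 to 11.8) were lower. All regions called in all 6 libraries had a median enrichment of 8.57 (quartiles 6.36 and 11.1), and the median of each of these 8 regions lay above it, which the choice of the highest in a window favours.

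Inside the gene bodies the open chromatin differed among the 4 longest genes. CRIM1, which spans 195358 bp, held its highest region within the body 48065 bp from the lower end (36403035 to 36404652), at 14.3 and 14.2 in AID_ctrl, 11.7 and 12.6 in AID_aux, and 13.4 and 12.8 in AID_wash, with both AID_aux values the lowest of the 6. ANXA3 (58678 bp) held a cluster 14026 to 17804 bp after its start, the highest of which (78566585 to 78567417) stood at 8.56 and 7.66, then 7.44 and 8.03, then 8.31 and 7.48, so that the groups overlapped. In CLU (17784 bp) a region 5520 bp from the lower end (27602097 to 27602778) stood at 7.71 and 7.08, then 9.85 and 5.32, then 5.30 and 6.80, a spread within AID_aux nearly as wide as that over all 6 libraries. ANXA1 (18529 bp) held no region in its body that all 6 degron libraries called, other than the one over its start. These intragenic regions were picked after their values were seen.

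The first comparison asked what closes or opens when GATA6 is degraded for 12 h. Around these 8 genes little did: 93 of 139 regions (66.9%) were called by all 4 libraries of AID_aux and AID_ctrl, 3 were lost and 2 were gained. A region is lost when both AID_ctrl libraries call it and neither AID_aux library does, and gained in the reverse case. Over all regions 2.36% were lost, 2.58% gained and 59.6% called by all 4, so the members' shares of 2.16% lost and 1.44% gained were close to the background. No region of CCN1, CCN2 or ANKRD1, the genes most used as YAP reporters, was lost or gained, and all 4 libraries called 15 of 18, 7 of 8 and 8 of 9 of their regions. The shares called by all 4 were lower at AJUBA (9 of 19), CRIM1 (24 of 40) and CLU (9 of 15), and lay between at ANXA1 (10 of 15) and ANXA3 (11 of 15). Over the 8 windows AID_ctrl libraries called 119 and 112 regions, AID_aux 117 and 106, and AID_wash 107 and 114, so the groups overlapped.

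CRIM1 held the clearest of the 3 losses. The region lies inside the gene (chromosome 2, 36492334 to 36492841), 136809 bp from the lower end. The gene table carries no exons, so whether it is intronic is not given here. Its peak stood at 4.46 and 4.83 in AID_ctrl, had no call in either AID_aux library, and stood at 5.09 and 4.94 in AID_wash. Both WT libraries called it and neither KO library did. The 4 degron libraries that called it put the summit within 26 bp, from 36492706 to 36492732, and ranked it at the 57.1, 60.6, 53.9 and 63.0 percentile of their lists by −log10 p. By fold enrichment the region lay below the median peak of each of these lists, 5.31 and 5.45 in AID_ctrl and 5.57 and 5.17 in AID_wash. Its calls were thus present in AID_ctrl, absent with auxin, present after wash and absent in the knockout, a pattern that 156 of all 120452 degron regions share (0.13%) and that no other region in the 8 windows showed.

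In the degron line the nearest region on each side of the CRIM1 region was called in all 6 libraries, while some regions further out were not. The nearest on the lower side (36488877 to 36489645) stood at 4.48 and 5.51 in AID_ctrl, 4.91 and 5.58 in AID_aux, and 4.65 and 4.48 in AID_wash. That on the upper side (36502045 to 36503070) stood at 5.08 and 4.35, then 3.20 and 4.19, then 5.22 and 4.99. Both were also called in all 4 WT and KO libraries. At the upper neighbour both AID_aux values were the lowest of the 6, and at the lower one the AID_ctrl and AID_aux values overlapped. It was also the one member among 190 lost regions, genome-wide, that lay in the top 50% of both AID_ctrl lists by −log10 p, of which 74 had the full pattern.

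**Figure D2:**
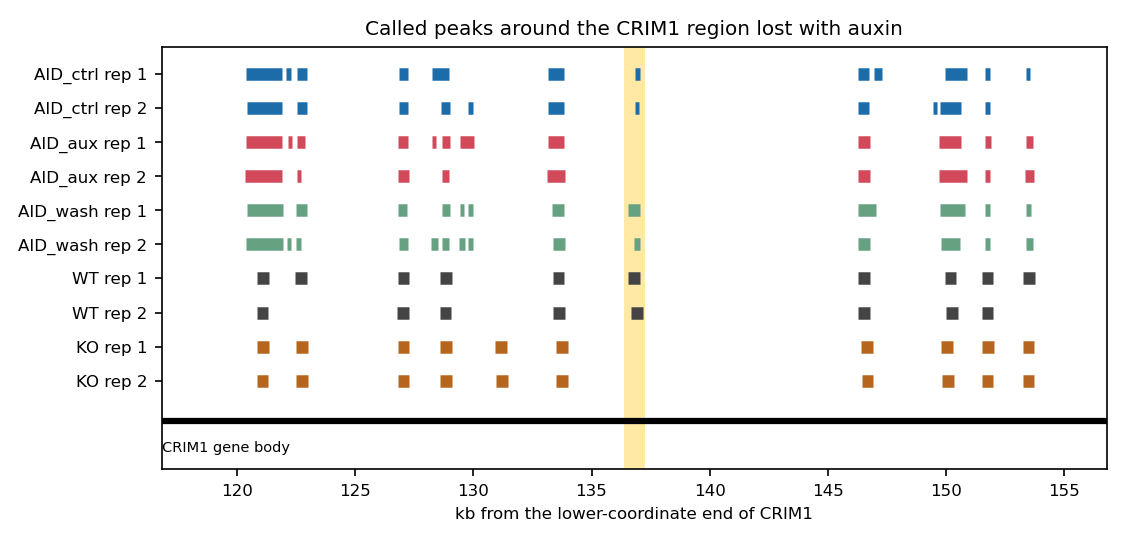
Peaks called in the 10 libraries (rows, coloured by group) within 20 kb of the CRIM1 region lost with auxin, by distance in kb from the lower-coordinate end of CRIM1 (x axis), with the gene body as a black bar. In the shaded region, 136809 bp from that end, AID_ctrl, AID_wash and WT libraries have a peak and AID_aux and KO libraries have none. The nearest region on either side has peaks in all 10, and some regions further out do not.

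The other losses were weaker or less complete. In ANXA3 a region 6634 bp inside the gene (chromosome 4, 78557886 to 78558922) stood at 2.31 and 2.75 in AID_ctrl, had no call in AID_aux, and came back in AID_wash replicate 1 alone, at 2.76. Both WT libraries called it and neither KO library did, as at CRIM1. At ANXA1 a region at -18642 bp (chromosome 9, 73133048 to 73133398) stood at 3.73 and 5.09 in AID_ctrl and was called in no AID_aux, AID_wash, WT or KO library. Of all 2729 regions lost with auxin, 213 (7.81%) were also lost in KO, and of these 3 it was 2. More of the 2729, 399, were gained in KO, and 785 overlapped no WT or KO window.

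The 2 gains were low peaks. AJUBA gained a region 740 bp after its start (chromosome 14, 22981493 to 22982130), at 2.08 and 2.39 in AID_aux, with a call in AID_wash replicate 1 (2.35) and none in AID_ctrl. It was gained in KO as well, as were 37.1% of all regions gained with auxin. CLU gained one near its lower end, 421 bp inside (chromosome 8, 27597229 to 27597447), at 3.04 and 3.22 in AID_aux, with a call in AID_wash replicate 2 (4.02). All 4 WT and KO libraries called the CLU region. When all 6 degron lists were cut to the same number of peaks, 154150, the losses at ANXA3 and ANXA1 and the gains at AJUBA and CLU each rested on 1 library fewer and were no longer called, and the loss at CRIM1 stayed.

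**Figure D3:**
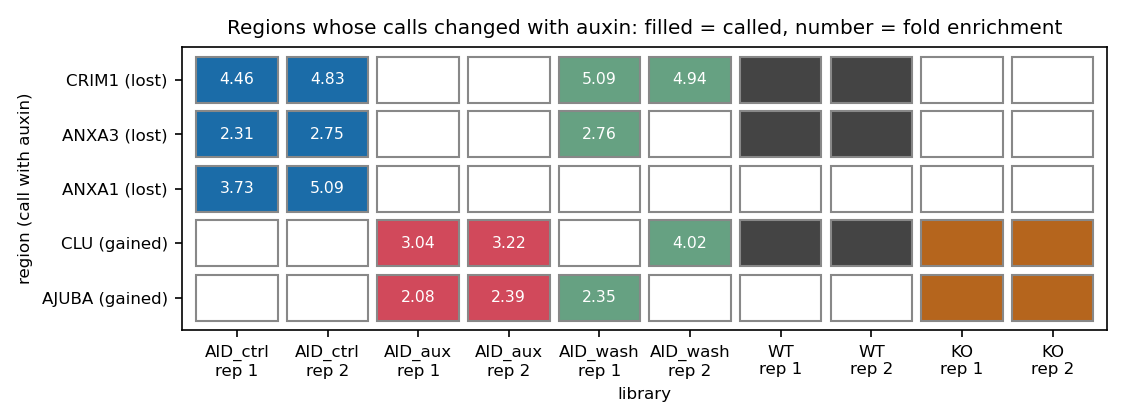
Calls of the 5 regions lost or gained with auxin (rows) in the 10 libraries (columns), where a filled box is a called region and the number in it the fold enrichment (the WT and KO lists give none). CRIM1 is filled in AID_ctrl, AID_wash and WT and empty in AID_aux and KO, and the other 4 rows differ between the replicates of AID_wash or have no call there.

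The second comparison asked what changed when auxin was washed out. Against AID_aux, AID_wash lost 3 and gained 4 of 139 regions and 89 (64.0%) were called by all 4. Over all regions 3.48% were lost, 1.21% gained and 57.4% called by all 4, and the members' shares were 2.16%, 2.88% and 64.0%. AID_wash replicate 1 had the shortest degron list, and with the 6 degron lists cut to equal length 1 member region was lost and 5 were gained, while over all regions 2.15% were lost and 2.3% gained. The larger share of losses than of gains over all regions did not hold at equal length. This comparison shares the AID_aux libraries with the first, so the gain of the CRIM1 region here is the return already given.

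The other 3 gains after wash, chosen after their values were seen, were small. ANXA3 had a region 15899 bp inside the gene (78567573 to 78567765) at 2.54 and 2.42 in AID_wash and in no other library. At AJUBA (23006023 to 23006479) and CLU (27635094 to 27635254) AID_ctrl replicate 1 had called the region too, at 2.59 and 3.49. The 3 losses, named likewise, included higher peaks. A region at -7951 bp from ANXA3 (78543350 to 78544289) stood at 6.58 and 7.73 in AID_ctrl and 3.70 and 5.68 in AID_aux, with no call in AID_wash. One at -42544 bp from ANXA1 (73108951 to 73109691) stood at 5.03 and 4.47, then 4.87 and 6.12, with no call in AID_wash. In both, AID_wash differed from AID_ctrl as well as from AID_aux, and the third, outside CRIM1 (36329591 to 36330343), had been called in AID_ctrl replicate 1 and both AID_aux libraries.

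Against AID_ctrl, with which it shares those libraries, AID_wash lost 4 and gained 1 of 138 regions, with 91 (65.9%) called by all 4. Over all regions 2.67% were lost, 0.685% gained and 60% called by all 4. With the lists cut to equal length 3 member regions were lost and 3 gained, against 1.59% and 1.47% of all regions, so the excess of losses in the windows did not hold. In the full lists all 5 changes lay at the annexin genes, 2 losses among 15 regions at ANXA1 and 2 losses and 1 gain among 17 at ANXA3. The losses were the 2 just given, the auxin loss at ANXA1 that did not return, and a region at -34541 bp from ANXA3 (78517139 to 78517319) at 4.75 and 4.48 in AID_ctrl and 4.37 in AID_aux replicate 2. The gain was the region inside ANXA3. CRIM1, with the most regions of any window, had none, and 26 of its 41 were called by all 4 libraries.

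The third comparison set lasting loss of GATA6, the knockout, against WT cells. Here calls moved one way: of 160 regions 2 were lost and 38 gained, with 70 (43.8%) called by all 4. Over all regions 1.24% were lost, 19.5% gained and 31.9% called by all 4. The members' share of gains, 23.8%, was close to the background, as was their share of losses, 1.25%. KO lists are longer than WT lists, 116231 and 130311 peaks against 65939 and 92814, and the part of that in the gains was not tested. In the 8 windows WT libraries called 98 and 82 regions and KO libraries 143 and 128.

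The 2 losses in KO were the CRIM1 region (36492333 to 36492946 in these lists) and the ANXA3 region inside the gene (78558189 to 78558928), both already lost with auxin. The auxin and knockout comparisons share no library. The auxin loss at ANXA3 was no longer called with degron lists of equal length or with a −log10 p of at least 10, and that at CRIM1 was. The reverse held where peaks had to cover at least 50% of a region.

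**Figure D4:**
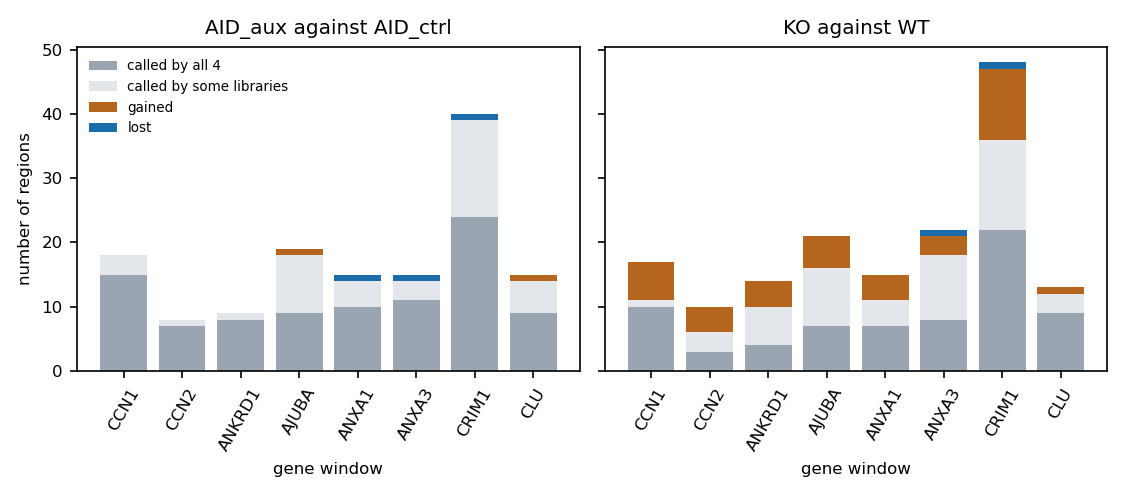
Number of regions in each gene window (bars, from 0) by call state for AID_aux against AID_ctrl (left) and KO against WT (right): called by all 4 libraries, called by some, gained or lost. With auxin 3 regions were lost and 2 gained over the 8 windows, and in KO 2 were lost and 38 gained, 11 of them at CRIM1.

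The gains in KO fell at all 8 genes and divided them by how open the same places were in the degron line. Of the 38, 10 (26.3%) overlapped a region that all 6 degron libraries called, against 11.8% of all gains in KO. The difference between these shares was not tested. CCN1 had 6 gains with 3 open in all 6 degron libraries, CCN2 4 with 2 and ANKRD1 4 with 2. AJUBA had 5 with 1, CRIM1 11 with 2 and CLU 1 with 0, while ANXA1 had 4 and ANXA3 3 with none. Where AID_ctrl libraries also call a gained region, the degron line and the KO cells share a call that WT lacks. The WT lists are the shortest, 92814 and 65939 peaks, and the degron lists differ from them in form. The part of this in the shared calls was not tested.

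CCN1 shows this best. In KO it gained a region at -561 bp from the lower end (85579949 to 85580451), where both WT libraries had no call and the 6 degron libraries stood at 2.2 to 2.4. Those values were near the floor, between the 0.328 and 1.60 percentile of their lists by enrichment. It gained another beyond the upper end (85584250 to 85584769), where the degron libraries stood at 2.36 to 2.99, and one at -8723 bp (85571787 to 85572290), where they stood at 3.86 to 5.37. The gene body between them was called in all 4 WT and KO libraries. In KO calls lay beyond both ends of CCN1, but WT windows also reached past the lower end. They ran from -180 to 319 bp in WT replicate 1 and from -181 to 318 bp in replicate 2. In KO the windows before that end stopped at -313 and -310 bp, and the next began at 154 bp in both libraries. All are 500 bp wide, and the part of their placement in the gain at -561 bp was not tested.

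**Figure D5:**
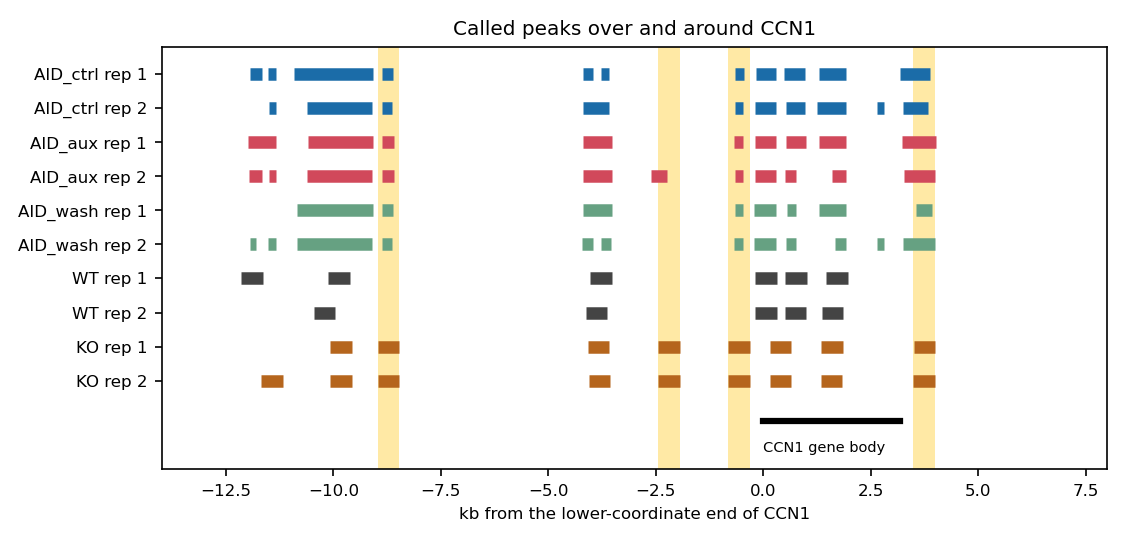
Peaks called in the 10 libraries (rows, coloured by group) over and around CCN1, by distance in kb from the lower-coordinate end (x axis), with the gene body as a black bar and the regions gained in KO shaded. Of the 4 shaded regions in view, 3 hold peaks of all 6 degron libraries and both KO libraries and none of WT.

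At CCN2 the gained regions named by the fixed order were at 27814 bp (131923308 to 131923808), where the degron libraries stood at 4.08 to 6.51, and at -44799 bp (131995853 to 131996489), at 5.29 to 8.33. One at 24851 bp (131926255 to 131926787) was called in 5 degron libraries. All 3 were distal. Over the CCN2 start itself KO replicate 1 had a window, and the nearest windows of the other 3 libraries lay further into the gene. At ANKRD1 the gains were at 33283 bp (90887515 to 90888094), in a region that stood at 8.01 to 15.3 in the degron line, at -8365 bp (90929193 to 90929711), at 2.94 to 4.74, and at -15030 bp (90935783 to 90936451), open in no degron library. At 33283 bp the highest value was that of AID_aux replicate 1, and the other 5 libraries stood at 8.01 to 9.6.

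AJUBA gained a region 7790 bp inside the gene (22974509 to 22975013), which stood at 2.57 to 3.52 in the degron line, the region at 731 bp that auxin also gained, and one at 6221 bp (22976080 to 22976580) in no degron library. CRIM1 gained regions beyond its upper end at 207571 bp (36563099 to 36563600) and 213777 bp (36569302 to 36569809), both in places open in all 6 degron libraries, and one outside its lower end at -25811 bp (36329681 to 36330254) called in 3. CLU gained 1, at 37339 bp (27634001 to 27634511), called in 4 degron libraries.

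None of the gains at the annexin genes was called in all 6 degron libraries, and the same held for the 1 at CLU. Gains that no degron library called also lay at CRIM1 (3), ANKRD1 (2), AJUBA (2), CCN1 (1) and CCN2 (1). At ANXA1 all 4 gains lay before the start, the nearest at -14328 (73137265 to 73137810), -17806 (73133710 to 73134409) and -32738 bp (73118876 to 73119378), and none was called in any degron library. At ANXA3 they were at 10089 bp inside the gene (78561606 to 78562112), at -21718 bp (78529795 to 78530310), called in 1 degron library, and at 60864 bp (78612337 to 78612932). The region at -17806 bp of ANXA1 sits near the one at -18642 bp that only AID_ctrl had, but the intervals do not overlap.

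Other genes of the pathway and of the fetal state were read in the same way. Among 22 other YAP and TEAD targets, all matched, 11 of 389 regions were lost with auxin (2.83%, at 8 genes) and 7 gained (1.80%), against the 2.36% and 2.58% of all regions. In the knockout 5 of 492 were lost (1.02%) and 77 gained (15.7%), against 1.24% and 19.5%. After wash 6 of 383 were lost (1.57%) and 8 gained (2.09%) against AID_aux, where all regions had 3.48% and 1.21%, and 8 of 379 were lost (2.11%) and 2 gained (0.528%) against AID_ctrl, where all regions had 2.67% and 0.685%. None of these differences from the background was tested.

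Of those 11 losses, 3 had the pattern of the CRIM1 region, with calls in both AID_wash libraries and loss in KO, and all 3 lay inside their genes. Of all regions lost with auxin, 5.72% have this pattern, and the difference was not tested. In AMOTL1, which encodes an angiomotin that tethers YAP at cell junctions, the region (chromosome 11, 94706830 to 94707794) stood at 7.94 and 8.61 in AID_ctrl and 7.17 and 6.17 in AID_wash. In RBMS3, which encodes an RNA-binding protein (chromosome 3, 29940276 to 29941334), it stood at 6.86 and 6.23, then 7.21 and 7.29. In MYOF, which encodes the membrane-repair protein myoferlin (chromosome 10, 93439490 to 93440210), it stood at 3.06 and 2.99, then 2.54 and 3.08. At LATS2, one of the kinases that restrain YAP, a region inside the gene (chromosome 13, 21000811 to 21001847) stood at 4.39 and 4.48, had no call in AID_aux, and returned at 4.21 and 3.85, but appeared in neither WT nor KO lists. Regions by IGFBP3 (chromosome 7, 45874290 to 45875290) and inside PTPN14 (chromosome 1, 214473508 to 214473725) went the other way and were gained in KO. Each of them returned in 1 AID_wash library. The rest, at MYOF, ASAP1, DOCK5 and RBMS3, had mixed calls in WT and KO or appeared in neither.

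Among 13 other genes of the fetal or regenerating intestine, all matched, 1 of 149 regions was lost with auxin (0.671%, against 2.36% of all regions) and 7 were gained (4.70%, against 2.58%). The loss lay by S100A6, a small calcium-binding protein gene (chromosome 1, 153517777 to 153518399), at 4.30 and 3.81 in AID_ctrl and in no other degron library. After wash 4 of 146 were lost (2.74%, against 3.48%) and 0 gained against AID_aux (1.21% of all regions), and 4 of 140 were lost (2.86%, against 2.67%) and 0 gained against AID_ctrl (0.685%). In the knockout 7 of 195 were lost (3.59%) and 30 gained (15.4%, against 19.5%), and the losses included 1 each at MSLN and CD44 and 2 at S100A6. Over all regions 1.24% were lost. These are few regions at 13 genes, and no difference from the background was tested.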

How the data were processed

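Peak lists of 10 ATAC-seq libraries (5 groups of 2) were analysed. The submitters' processing notes list hg38 as build, MACS2 2.1.1 as peak caller software, and Bowtie2 2.4.2, Trim Galore 0.6.10 and Picard, without parameters or the treatment of the transposase offset. The 6 deposited degron lists give a fold enrichment ratio and a −log10 p per peak, the authors' values within one list, used here only to describe, rank or filter peaks of that list. The 4 deposited WT and KO lists give coordinates of 500 bp windows only. Overlapping or touching peaks (chromosomes 1 to 22 and X) became one region, over the 6 degron lists and over the 4 WT and KO lists separately, with python 3.11.15 and pandas 2.3.3. A library called a region when a peak overlapped it by at least 1 bp. Several summits can share an interval, and the highest was used. Depth is unknown.

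Lost, gained and retained were read from calls, beside the same share over all regions called by at least 1 of the 4 libraries, and no test was run. Gene positions are from RefSeq (GRCh38.p14), without strand, which came from the promoter table for 5 of the 8 genes. A region lay over a start within 250 bp. Positions count from 1. Named regions were those over the starts, the highest distal region called in all 6 degron libraries, all regions lost or gained with auxin or lost in KO, and up to 3 per gene gained in KO, those open in all 6 degron libraries first and then the nearest. The genes and lists were chosen with earlier results of these data known. Alternatives were the overlap, flank, merging gap, −log10 p of at least 10, equal list lengths, strong regions only and leaving out each library.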

Additional observations from a re-analysis of the deposited data

How the results depend on the processing

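No paired analysis was possible because the results come from calls with no test. Over settings other than leaving out a library, 22 of 50 counts stayed within 1.5 times the value reported and 28 did not, most of them counts of 5 or fewer, and the cause was not tested. Where peaks had to cover at least 50% of a region, auxin gains were 6, gains of AID_wash against AID_ctrl 4 and losses in KO 6. Flanks of 20 kb gave 1 loss and 2 gains for AID_wash against AID_aux, 2 losses for AID_wash against AID_ctrl and 25 gains in KO, and flanks of 100 kb gave 4 auxin gains and 7 losses in each wash comparison. Merging across 250 bp gave 1 auxin loss, 1 auxin gain, 1 gain of AID_wash against AID_aux and 0 against AID_ctrl. With −log10 p of at least 10 there was 1 auxin gain, 2 gains of AID_wash against AID_aux, and 2 losses and 0 gains against AID_ctrl. Equal list lengths gave 1 auxin loss, 1 auxin gain, 1 loss of AID_wash against AID_aux and 3 gains against AID_ctrl. Strong regions alone gave 1 auxin loss and 0 gains, 0 losses and 1 gain of AID_wash against AID_aux, and 0 and 0 against AID_ctrl. Leaving out any one library of a comparison raised the counts, since fewer calls then define a change: auxin losses were 5 to 10 and gains 3 to 6, those of AID_wash against AID_aux 5 to 10 and 5 to 10, those against AID_ctrl 5 to 10 and 3 to 6, and those in KO 3 to 9 and 39 to 54. Of 52 values for single regions 40 stayed and none reversed. The CRIM1 loss stayed except under the 50% cover, where its AID_ctrl peaks, 224 and 196 bp wide, fill less of the 508 bp merged region, so its value was 0. Without counts, a low peak cannot be told from one just under the threshold.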
